A study of Mus musculus with 4 samples.

Results

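Type I interferon-stimulated genes are described here in sorted CD4+ T cells of mice, as a set of 43 genes out of the 22056 in the expression tables. The 43 were listed by name, and all 43 were in both tables. Live CD4+ TCRβ+ YFP+ cells of C57BL/6 mice, labelled as T regulatory cells (Treg), came from mice labelled ICOS WT or ICOS FC, which the labels also call ICOS-deficient. Spleens came from mice at steady state, and cells of the cervical draining lymph nodes (LN) on day 1 after challenge with oxazolone, a contact sensitiser. The sources used here do not give the allele behind ICOS FC, the driver of YFP or the number and age of the mice per library. Each of the 4 groups was 1 droplet library of 3' ends, so no comparison has a replicate check or a test. Values are given in the order ICOS WT, ICOS FC, and the intervals cover counting error only. Those intervals treat each UMI, a counted molecule, as independent and are too narrow where the UMIs sit in few cells.

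Type I interferons signal through the receptor chains IFNAR1 and IFNAR2 and the kinases JAK1 and TYK2. The complex ISGF3, which holds STAT2 and IRF9, then binds interferon-stimulated response elements near its target genes. The targets include sensors of viral RNA, proteins that block viral RNA or budding, and parts of the pathway itself. T cells express IFNAR and show these genes when interferon reaches them, and interferon-gamma, made by T cells and NK cells, raises many of the same genes.

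Stretches of 7 promoters that hold the core of the response element are shown, since the element is where ISGF3 binds. The core letters GAAA, any 2 bases and GAAA again, read on either strand, were searched in RefSeq promoter windows (build GRCm38.p6, 250 bases before to 50 after a gene's start). Of the 43 members, 34 had a window and 16 of these (47.1%) held the letters, against 3.99% of 27025 genes. With the last repeat shortened to GAA, which every match of the longer motif also holds, the counts were 18 members (52.9%) and 9.76% of genes. The stretches below run 5′ to 3′ on the gene's own strand, and capitals mark the matches.
Isg15, chr4:156200860-156200911 (-): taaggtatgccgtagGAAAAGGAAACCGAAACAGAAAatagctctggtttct
Ifit1, chr19:34640770-34640828 (+): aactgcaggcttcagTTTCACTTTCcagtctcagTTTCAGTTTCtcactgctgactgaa
Ifit3, chr19:34583358-34583431 (+): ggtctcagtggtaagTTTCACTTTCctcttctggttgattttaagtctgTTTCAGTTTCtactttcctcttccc
Rsad2, chr12:26456548-26456587 (-): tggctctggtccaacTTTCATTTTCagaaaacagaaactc
Oas1a, chr5:120907526-120907560 (-): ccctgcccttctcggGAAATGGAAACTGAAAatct
Bst2, chr8:71537572-71537617 (-): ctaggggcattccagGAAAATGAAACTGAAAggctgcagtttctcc
Stat2, chr10:128270261-128270300 (+): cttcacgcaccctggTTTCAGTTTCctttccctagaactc
Isg15 held 3 overlapping matches, the first 78 bases before its start. Ifit1 and Ifit3 held 2 each, the first 104 and 156 bases before their starts, and the printed stretch of Ifit3 was identical to that of its neighbour Ifit3b. Bst2 and Oas1a each held 2 overlapping matches. None of the printed stretches overlaps an annotated exon on the gene's own strand, and exons on the other strand were not checked. A match describes these letters and is not a measured binding site.

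The libraries held 4995 and 5917 spleen cells with 27183614 and 28256866 UMIs, and 1897 and 2066 LN cells with 15045805 and 17330489 UMIs. A median spleen cell held 5044 and 4361 UMIs, and a median LN cell 6591 and 6789. Icos was counted at 112 (ICOS WT) and 258 (ICOS FC) UMIs per 1000000 UMIs of the library (CPM) among spleen cells and at 599 and 928 CPM among LN cells, so it was higher in both libraries labelled ICOS FC. The labels do not name a deleted part of Icos, and a 3' tag that lies outside such a part checks nothing. The libraries are therefore named by their labels throughout. Foxp3, the defining Treg factor, had between 53.2 and 72.2 CPM. The 8 Treg markers summed to 2071, 2377, 3554 and 4263 CPM over the spleen and LN libraries, and none was at 0. In spleen cluster 4 (737 and 655 cells) they summed to only 233 and 263 CPM, which goes against the Treg label for those cells. Without those cells the spleen members had a median log2 ratio of 0.15. Intervals above equality then numbered 13 in place of 16, and those below it 7 in place of 4. With all spleen cells, 12.1% of genes tested had an interval above equality and 19.3% below it. Any pair of libraries shared between 1 and 30 cell barcodes, the highest being the 2 LN libraries, at 1.58% of the smaller one. Leaving out every cell whose barcode occurs in another library, 37 spleen and 80 LN cells, gave median member ratios of 0.15 and -0.27 (log2).

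Members were far higher in the LN libraries than in the spleen libraries under both labels. Their summed level was 3115 and 3449.8 CPM in the spleen against 12899 and 10503 CPM in the LN, or 0.312%, 0.345%, 1.29% and 1.05% of all UMIs. Ifi27l2a, a small interferon-induced membrane protein, gave a large part of these UMIs, and without it the sums were 1899.8, 1979, 6733 and 5642 CPM. All 43 members had a higher CPM in the LN under both labels, with intervals above equality. The share of all genes that did so was not counted. By the rule of at least 2-fold under both labels with at least 5 CPM, 35 of 42 members were higher and 0 lower. The same rule called 5.19% of 8569 genes higher and 0.443% lower. The median member ratio was 2.08 (log2) under ICOS WT and 1.71 under ICOS FC, against 0.13 and 0.11 over all genes tested. Scaling by trimmed means or by median ratios shifts every LN to spleen ratio by -0.13 to -0.16 and leaves 34 members called. Tissue and oxazolone differ together here and cannot be told apart.

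**Figure D1:**
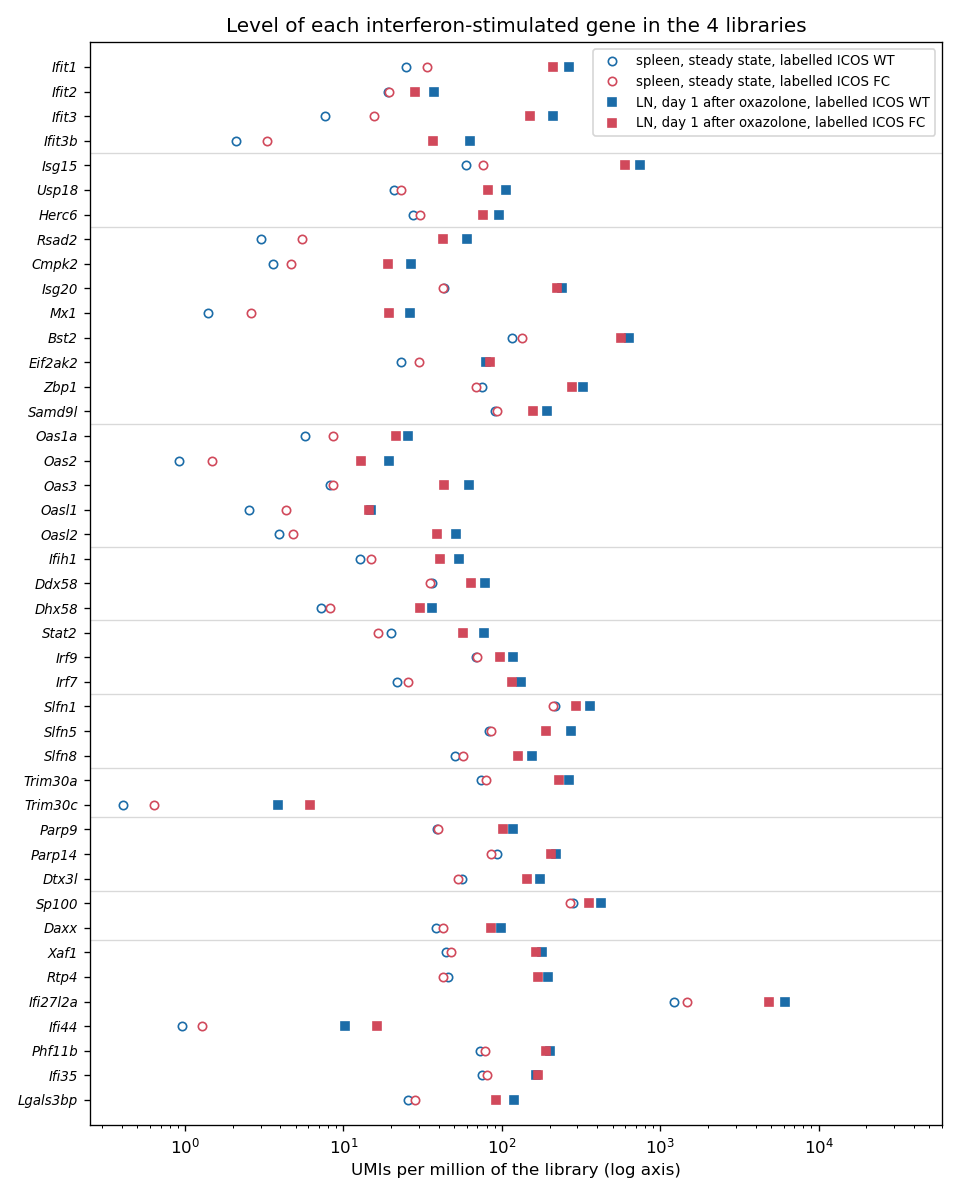
Level of each of the 43 members in CPM, on a log axis, with spleen libraries as open circles and LN libraries as filled squares, blue for ICOS WT and red for ICOS FC. Every LN point lies to the right of both spleen points of its gene, and most LN pairs have the red point to the left.

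The IFIT proteins, which bind viral RNA that lacks host cap marks, included the widest gaps between LN and spleen under ICOS WT, while under ICOS FC the ratio of Ifi44 (12.9-fold) was above theirs. Ifit3 had 7.65 and 15.6 CPM in the spleen against 211 and 150.3 CPM in the LN, ratios of 27.6-fold and 9.63-fold. Ifit3b had 2.10 and 3.29 CPM in the spleen against 62.9 and 36.5 CPM in the LN, ratios of 29.99-fold and 11.1-fold. Ifit1 had 24.9 and 33.5 CPM in the spleen against 264 and 209 CPM in the LN. In these 3 genes the LN values stood above both spleen values, and the library labelled ICOS FC was the higher one in the spleen and the lower one in the LN. Ifit2 differed less, with 19.2 and 19.3 CPM in the spleen against 37.4 and 28.2 CPM in the LN, and did not reach 2-fold under ICOS FC. The 4 genes lie side by side on chromosome 19, in the order Ifit2, Ifit3, Ifit3b, Ifit1, with gaps of 7111, 19238 and 27469 bases.

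Isg15, a ubiquitin-like protein joined to other proteins, had 59.0 and 76.0 CPM in the spleen against 748 and 600.4 CPM in the LN, ratios of 12.7-fold and 7.90-fold. Usp18, which removes ISG15 and dampens IFNAR signalling, had 20.7 and 23.0 CPM in the spleen against 106 and 81.2 CPM in the LN. Herc6, the ligase for ISG15 in mice, had 27.6 and 30.6 CPM in the spleen against 95.6 and 76.1 CPM in the LN. The 3 genes of this system were thus each highest in the LN library labelled ICOS WT.

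Among the effectors, Rsad2 (viperin, which makes a chain-ending nucleotide) had 3.02 and 5.45 CPM in the spleen against 60.1 and 42.7 CPM in the LN. Its neighbour Cmpk2, a nucleotide kinase 12751 bases away on chromosome 12, had 3.61 and 4.67 CPM in the spleen against 26.6 and 19.2 CPM in the LN. Mx1, counted here as RNA with no measure of its protein, had 1.40 and 2.62 CPM in the spleen against 26.1 and 19.4 CPM in the LN. These 3 genes shared one order of the libraries, with the ICOS FC label higher in the spleen and lower in the LN. Bst2 (tetherin, which holds budding virus at the membrane) had 115 and 133 CPM in the spleen against 633 and 567 CPM in the LN. Isg20, an RNA exonuclease, had 43.2 and 42.4 CPM in the spleen against 239.7 and 223 CPM in the LN. Zbp1, a sensor of Z-form nucleic acid, had 75.1 and 69.0 CPM in the spleen against 323 and 277 CPM in the LN. Eif2ak2 (PKR, which halts translation on double-stranded RNA) had 23.0 and 29.8 CPM in the spleen against 79.6 and 84.1 CPM in the LN. It was the one gene of these 8 whose LN value was not lower under the ICOS FC label. Samd9l, a brake on translation and growth, had 90.9 and 92.7 CPM in the spleen against 193 and 156 CPM in the LN.

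The oligoadenylate synthetases make the signal that activates RNase L, except for inactive relatives such as OASL1. All 5 were at least 2-fold higher in the LN. Oas2 had 0.92 and 1.49 CPM in the spleen against 19.4 and 12.8 CPM in the LN. Oas3 had 8.28 and 8.56 CPM in the spleen against 62.1 and 43.1 CPM in the LN. Oas1a had 5.70 and 8.53 CPM in the spleen against 25.7 and 21.5 CPM in the LN. Oasl1 and Oasl2 had 2.54 to 4.81 CPM over the spleen libraries and 14.4 to 51.6 CPM over the LN libraries, with no overlap between tissues.

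The cytosolic RNA sensors Ifih1 (MDA5) and Dhx58 (LGP2) had 12.8 and 14.9 CPM and 7.17 and 8.28 CPM in the spleen against 54.0 and 40.7 CPM and 36.0 and 30.2 CPM in the LN. Ddx58 (RIG-I) differed less between tissues, with 36.5 and 35.1 CPM in the spleen against 78.2 and 64.1 CPM in the LN. Of the transducers, Irf7, the factor that amplifies interferon production, had 21.9 and 25.6 CPM in the spleen against 132 and 115 CPM in the LN. Stat2 had 19.8 and 16.6 CPM in the spleen against 76.7 and 57.1 CPM in the LN, so it was lower under the ICOS FC label in both tissues. Irf9, the DNA-binding part of ISGF3, had 69.0 and 69.5 CPM in the spleen against 117 and 98.0 CPM in the LN.

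The remaining members covered several families. Among the Schlafen genes, which act on T cell quiescence and on RNA, Slfn1 had 216 and 209.6 CPM in the spleen against 361 and 295 CPM in the LN. Slfn5 had 82.5 and 85.2 CPM in the spleen against 272 and 189 CPM in the LN. Slfn8 had 50.7 and 56.9 CPM in the spleen against 155 and 126 CPM in the LN. The nuclear body proteins Sp100 and Daxx had LN to spleen ratios of 1.5-fold and 1.31-fold for Sp100, the lowest of the 43 members under both labels, and 2.57-fold and 1.99-fold for Daxx. Parp9, Parp14 and Dtx3l, which act together on ADP-ribosylation and ubiquitin in the antiviral response, were 2.35-fold to 3.11-fold higher in the LN. Trim30a, which restrains Toll-like receptor signalling, had 74.3 and 79.6 CPM in the spleen against 265 and 229 CPM in the LN. Ifi27l2a had 1215 and 1470.4 CPM in the spleen against 6166 and 4861 CPM in the LN, ratios of 5.07-fold and 3.31-fold. Xaf1, Rtp4, Lgals3bp, Phf11b and Ifi35 were 2.09-fold to 4.70-fold higher. The 8 members outside the called set were Ifit2, Irf9, Ddx58, Slfn1, Samd9l, Sp100 and Daxx, which did not reach 2-fold under ICOS FC, and Trim30c, which had too few UMIs for the rule.

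Within the LN, the library labelled ICOS FC was a little lower for nearly the whole set. All 43 members passed 5 CPM, and 39 had a lower and 4 a higher value under the ICOS FC label. The interval lay below equality for 38 members and above it for 2, where 23.5% and 16.3% of 8694 genes did. The median member ratio was -0.29 (log2), against -0.04 over all genes tested. The differences were small, since 2 members were at least 1.5-fold lower and 2 at least 1.5-fold higher, where 2.22% and 1.93% of genes were. Ifit3b had a ratio of -0.78 [-0.93, -0.64] and Oas2 one of -0.60 [-0.86, -0.34]. Oas2 stood at 0.02 when the LN clusters were weighted equally, and its 1.5-fold call was lost with either other scaling. Slfn5 had -0.53 [-0.59, -0.46], Oas3 -0.53 [-0.67, -0.39], Ifit3 -0.49 [-0.57, -0.41] and Ifit1 -0.33 [-0.40, -0.27]. Isg15 had -0.32 [-0.36, -0.28] and Ifi27l2a -0.34 [-0.36, -0.33].

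Both members with an LN interval above equality had few UMIs. Ifi44, a cytoplasmic interferon-induced protein, had 154 and 284 UMIs, or 10.2 and 16.4 CPM, a ratio of 0.68 [0.39, 0.97] that stood at 0.01 in cells with a Foxp3 UMI. Trim30c, a close relative of Trim30a, had 58 and 107 UMIs, or 3.85 and 6.17 CPM, a ratio of 0.68 [0.21, 1.17]. In the spleen, Ifi44 had 26 and 36 UMIs and Trim30c 11 and 18, so their order was the same but within counting error. Oasl1 at -0.05 [-0.31, 0.22], Eif2ak2 at 0.08 [-0.03, 0.19] and Ifi35 at 0.03 [-0.05, 0.11] had LN intervals that held equality.

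In the spleen, the order was the opposite and rested on fewer genes. Of the 35 members that passed 5 CPM, 16 had an interval above equality and 4 below it, where 12.1% and 19.3% of 8406 genes did. The members below were Stat2, Parp14, Zbp1 and Sp100. The median was 0.10 over those 35 and 0.15 over all 43, of which 34 were higher and 9 lower under the ICOS FC label. At 1.5-fold, 2 members were higher and 0 lower, where 1.07% and 0.559% of genes were. These were Ifit3, with 208 and 441 UMIs and a ratio of 1.03 [0.79, 1.27], and Rsad2, with 82 and 154 UMIs and a ratio of 0.85 [0.46, 1.26]. Ifit1 had 0.43 [0.28, 0.57], Isg15 0.37 [0.27, 0.46], Oas1a 0.58 [0.28, 0.88], Eif2ak2 0.38 [0.23, 0.53] and Ifi27l2a 0.27 [0.25, 0.30]. The 8 members under 5 CPM were Ifit3b, Cmpk2, Mx1, Oasl1, Oasl2, Oas2, Ifi44 and Trim30c. Of the 35 members tested in both tissues, 14 were above equality in the spleen and below it in the LN and 0 the reverse, where 2.24% and 2% of 8249 genes were. The difference between the tissues was not tested.

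**Figure D2:**
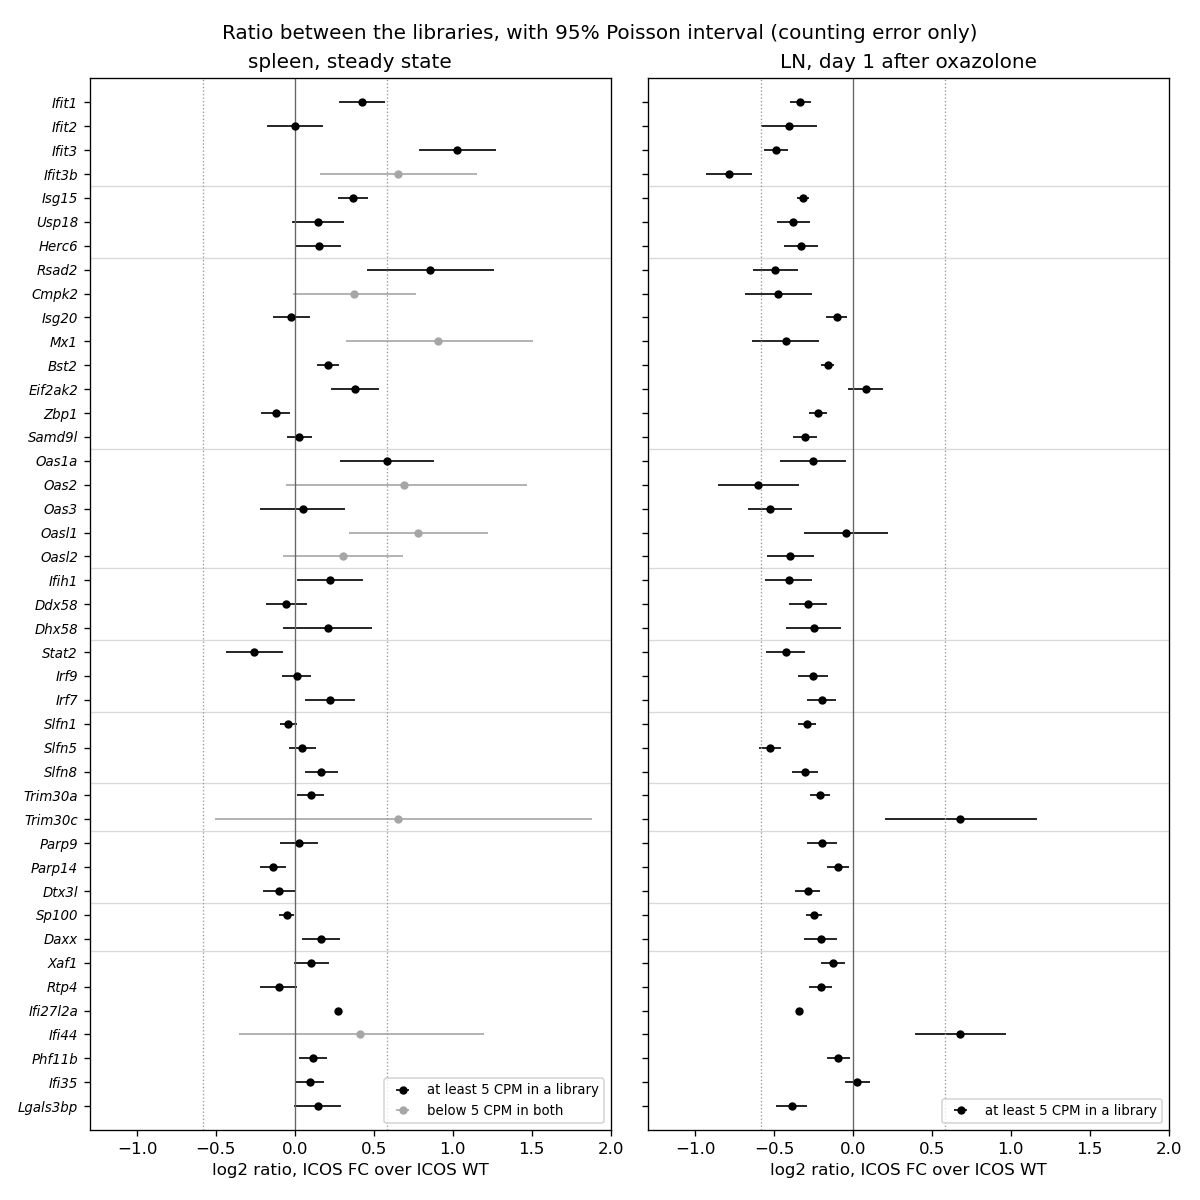
Log2 ratio of ICOS FC over ICOS WT for each member with its 95% Poisson interval for counting error, in the spleen (left) and the LN (right), with dotted lines at 1.5-fold and members under 5 CPM in both libraries in grey. The LN points sit left of 0 for 39 of 43 members, and the spleen points right of 0 for 34.

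Leaving out 1 small cluster, itself marked by high levels of these genes, removed much of the spleen difference. The authors' deposited clusters held an interferon response-like cluster in each tissue, cluster 6 of the spleen (47 and 117 cells) and cluster 5 of the LN (119 and 104 cells). All 10 leading genes of each were members, and 6 and 3 of these were among the 8 fixed interferon response markers. The clusters were made from these same genes, so the levels that follow describe them and their sizes are not read as a result. In spleen cluster 6, the 8 Treg markers summed to 2134 and 2229 CPM, close to the level of the whole libraries. In LN cluster 5 they summed to 1168 and 1471 CPM, well under those libraries' 3554 and 4263. Ifit3 had 442 CPM in spleen cluster 6 and 5.49 CPM in all other spleen cells, an 80.5-fold difference. Rsad2 was 86.3-fold and Isg15 20.9-fold higher there, while Sp100 and Irf9 were 2.50-fold higher, and all 43 members had their highest spleen level in this cluster.

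Cluster 6 held 38.0% of the Ifit3 UMIs of the spleen library labelled ICOS WT and 61.2% of those of the library labelled ICOS FC. For Rsad2 these shares were 42.7% and 62.3%, for Ifit1 26.7% and 43.8%, and for Isg15 13.2% and 30.6%. All of these shares also depend on how many cells of each library the cluster held, 47 and 117. Left to the other spleen cells, 0 members were 1.5-fold higher, where 1.05% of genes were, and 6 had an interval above equality and 8 below it, where 12.1% and 19% of 8408 genes did. The median was 0.02, with 23 members higher and 20 lower. The cluster was made from these same genes and held more cells under the ICOS FC label. Leaving it out thus takes more member UMIs from that library, so the drop is only a description. Ifit3 then had a ratio of 0.37 [0.03, 0.71], Rsad2 0.26 [-0.32, 0.85], Ifit1 0.06 [-0.12, 0.24] and Isg15 0.06 [-0.05, 0.17]. Ifi27l2a kept 0.26 [0.23, 0.28], and Oas1a 0.52 [0.21, 0.84], Eif2ak2 0.31 [0.16, 0.47], Bst2 0.13 [0.06, 0.21] and Slfn8 0.11 [0.0026, 0.22] also stayed above equality. Ifi27l2a was above equality in each of spleen clusters 0 to 5, at 0.15 to 0.35. In the LN the same step changed little, with 37 members below equality and 1 above, where 23.9% and 15.8% of 8716 genes were, and a median of -0.28. Without both clusters, Ifit3, Oas1a, Bst2, Ifi27l2a and Slfn8 were the 5 members above equality in the spleen and below it in the LN. The share of all genes with this order was not counted without the clusters, and Slfn8 passed by a bound of only 0.0026.

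**Figure D3:**
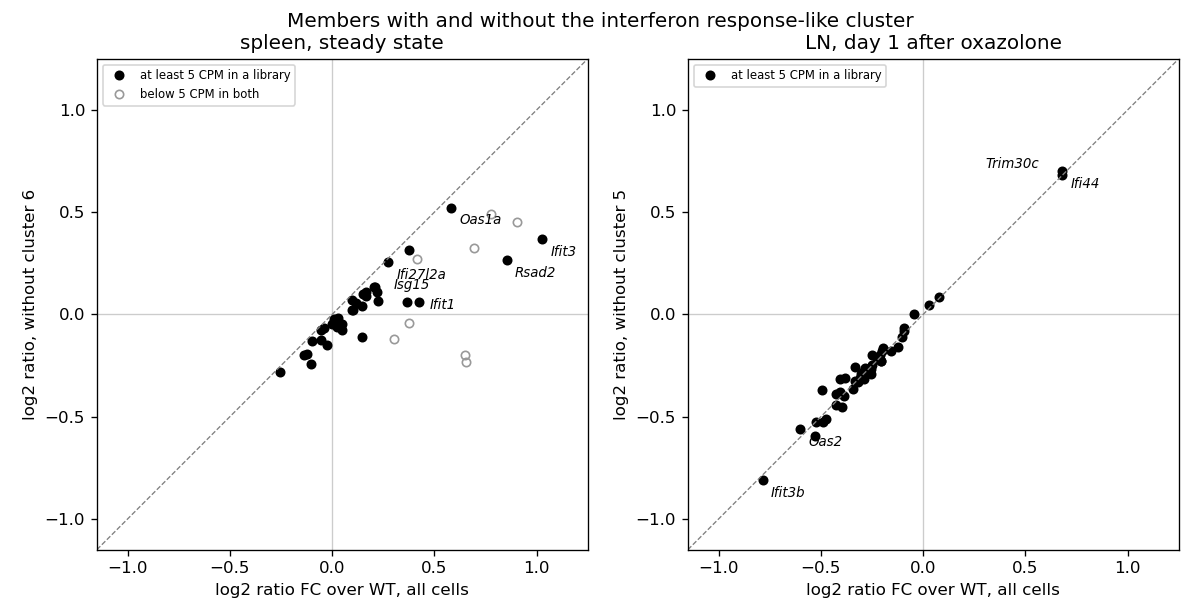
Log2 ratio of ICOS FC over ICOS WT per member over all cells (horizontal) and without the interferon response-like cluster (vertical), in the spleen (left) and the LN (right), with a dashed line of equal values. Spleen members such as Ifit3 (1.03 to 0.37) and Rsad2 (0.85 to 0.26) lie under the line, and LN members lie along it.

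The gap between LN and spleen was wider in the cells outside these clusters than between the clusters themselves. Both clusters stand out by high levels of these same genes, so this contrast is only a description. Over all other cells, the LN level was 1.35-fold (Sp100) to 37.3-fold (Ifit3b) that of the spleen, with a median of 3.85-fold over the members. Between the 2 interferon response-like clusters, the ratio was 0.708-fold (Oas1a) to 4.19-fold (Oas2), with a median of 1.57-fold. Ifit3 shows both, at 5.49 and 141 CPM in the other cells of spleen and LN and at 442 and 948 CPM in the clusters. In the LN, 41 members were highest in cluster 5, from 10.0-fold for Rsad2 down to 1.77-fold for Irf9 above the other cells. The fold over the other cells was smaller in the LN than in the spleen for each member except Ifit2, at 3.47-fold in the spleen and 6.24-fold in the LN. Ifi27l2a was lower there, with 4317 CPM in cluster 5 and 5523 CPM in the other LN cells, and it was highest in cluster 0, as was Oas1a (1.65-fold higher in cluster 5 than in all other LN cells). Rsad2 ranged from 7.31 CPM in LN cluster 4 to 359.6 CPM in cluster 5, and Isg15 from 315 CPM in cluster 6 to 2253 CPM in cluster 5. These levels thus differed between clusters by far more than counting error. The part of free RNA in them was not tested.

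The lower LN level under the ICOS FC label was spread unevenly over the LN clusters. In cluster 0 (525 and 681 cells), 29 of 42 members tested were below equality and 1 above, where 15% and 10.4% of genes were, and the median of the 43 was -0.24. In cluster 1 (422 and 413 cells), 28 were below it and 1 above it, where 8.13% and 4.72% of genes were, with a median of -0.32. In cluster 2 (391 and 221 cells), 31 were below and 0 above, where 8.83% and 7.03% of genes were, with a median of -0.53. Cluster 2 held 14 members that were at least 1.5-fold lower, where 4.61% of genes were. Ifit3 had 202 and 83.9 CPM in cluster 2, a ratio of -1.27 [-1.56, -0.98]. Mx1 had 20.7 and 6.61 CPM there (-1.65 [-2.78, -0.66]), and Oasl2 43.7 and 19.8 CPM (-1.14 [-1.77, -0.55]). The smaller cluster 7 (66 and 57 cells) had 12 members below and 2 above, where 5.66% and 4.23% of genes were. Its CD8 T and NK markers summed to 595 and 598 CPM, which goes against the sort on CD4, and its Treg markers to 2217 and 2629 CPM.

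Clusters 3 to 6 of the LN showed this pattern weakly or not at all. Cluster 3 (137 and 293 cells) had 6 members below and 0 above, where 3.93% and 7.5% of genes were, and a median of -0.02. Ifit1 had 223 and 227 CPM there, and Ifit3 146 and 157 CPM. The ratio of the summed member level was -0.21 [-0.24, -0.18] in cluster 3, against -0.12, 0.05 and -0.05 in clusters 4, 5 and 6. Without Ifi27l2a these ratios were -0.11 [-0.15, -0.06], 0.04, 0.06 and 0.02. In cluster 4 (138 and 217 cells) the median was 0.19, with 8 members above equality and 6 below it, where 8.15% and 7.62% of genes were. Those above included Herc6 at 0.81 [0.35, 1.29], Ddx58 at 0.83 [0.26, 1.43] and Phf11b at 0.61 [0.35, 0.89]. Those below included Isg15 at -0.23 [-0.32, -0.13] and Ifi27l2a at -0.24 [-0.27, -0.20]. Within the interferon response-like cluster 5, 8 members were above and 2 below, where 3.8% and 4.02% of genes were, with a median of 0.02. Ifit1 had 1022 and 1039 CPM there, and Ifit3 934 and 965.5 CPM. Ifi44 was 1.02 [0.42, 1.64] and Trim30c 1.11 [0.21, 2.06] higher in the same cluster, and Ifi44 stood at 2.42 and 17.8 CPM in cluster 1. Cluster 6, with a median of 2022 and 1787.5 UMIs per cell, had 2 members above and 1 below, where 3.11% and 3.07% of genes were. Weighting the 8 clusters equally gave a library median of -0.14 in place of -0.29. Whether ratios differ between clusters was not tested.

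**Figure D4:**
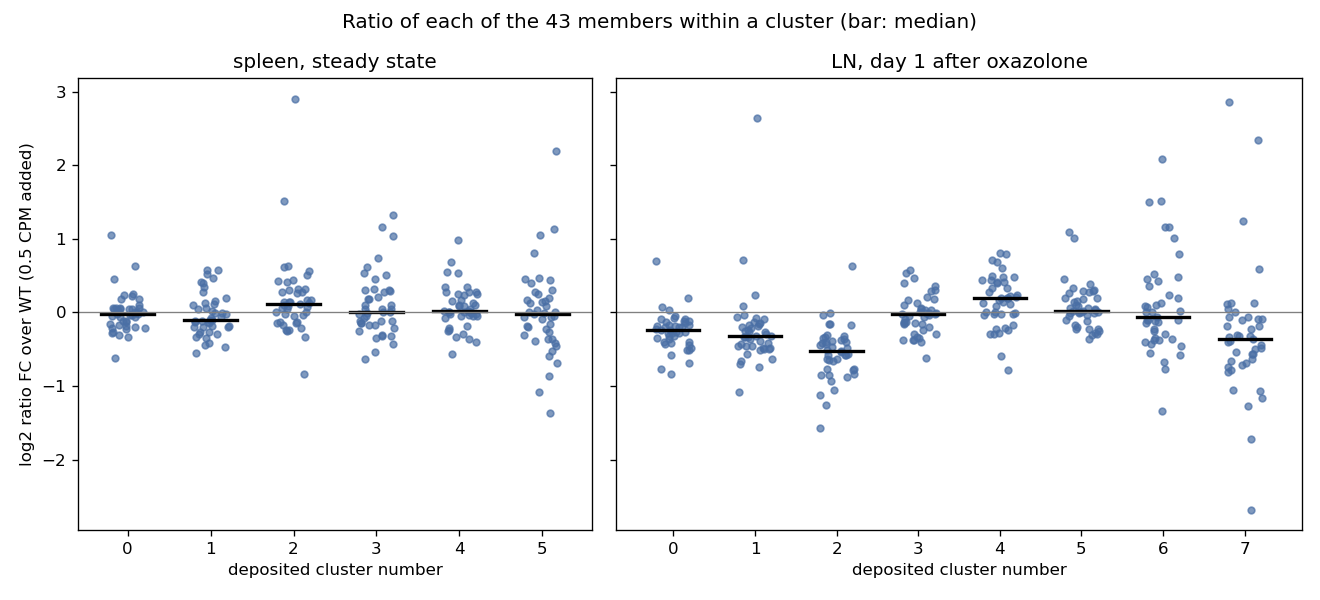
Log2 ratio of ICOS FC over ICOS WT, with 0.5 CPM added to each level, of each of the 43 members within the deposited clusters that held at least 50 cells of each library, with bars at the medians. LN clusters 0, 1, 2 and 7 have medians of -0.24, -0.32, -0.53 and -0.36, while the medians of LN clusters 3 to 6 and the spleen clusters lie between -0.10 and 0.19.

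Counting members cell by cell showed how the UMIs were spread. Each cell was thinned to 2000 UMIs so that depth could not set the number of members seen, which left out 89 and 155 spleen cells and 69 and 59 LN cells. The median spleen cell showed 4 of the 43 members under either label, and the median LN cell 10 and 8. At least 10 members were seen in 2.45% [2.03, 2.92] and 3.58% [3.11, 4.09] of spleen cells against 50.4% [48.1, 52.8] and 38.2% [36.1, 40.4] of LN cells, with exact binomial intervals. Outside the interferon response-like clusters, these shares were 1.63% and 1.88% in the spleen against 47.0% and 34.8% in the LN. Near the threshold, 87 and 69 spleen cells and 136 and 137 LN cells showed exactly 9 members, and 46, 51, 126 and 119 showed exactly 10. At least 15 members were seen in 0.510% [0.330, 0.751] and 1.08% [0.826, 1.38] of spleen cells. Without thinning, 27.8% and 21.4% of spleen cells against 91.9% and 82.8% of LN cells showed at least 10, so the order of the spleen libraries was the reverse without thinning.

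Single members followed the same spread. Isg15 had a UMI in 9.05% and 10.1% of thinned spleen cells against 54.3% and 48.0% of thinned LN cells. Ifit3 had one in 1.28% and 2.0% of spleen cells against 27.9% and 19.2% of LN cells. Rsad2 had one in 0.448% and 0.920% of spleen cells against 9.41% and 7.03% of LN cells. Ifi27l2a was seen in most cells of all libraries, at 75.5%, 79.3%, 97.3% and 96.1%. No cell type known to lack these genes was present for comparison.

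**Figure D5:**
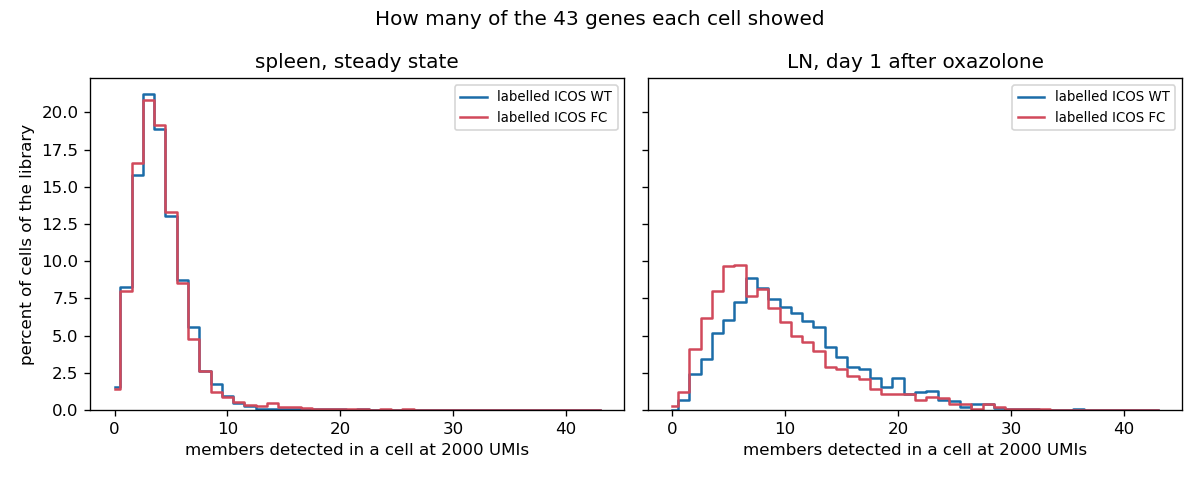
Percent of the cells of a library (vertical) by the number of the 43 members detected in the cell at 2000 UMIs (horizontal), in the spleen (left) and the LN (right), blue for ICOS WT and red for ICOS FC. The spleen curves nearly coincide around a median of 4, and the LN curve of the library labelled ICOS FC is shifted left, with a median of 8 against 10.

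The interferon genes themselves gave no UMI. The 9 type I and type III ligand genes in the tables, Ifnb1, Ifna1, Ifna2, Ifna4, Ifna5, Ifnk, Ifne, Ifnl2 and Ifnl3, were at 0 in all 4 libraries, where 3 UMIs would be 0.106 to 0.199 CPM. Ifng had 2.21 and 3.33 CPM in the spleen against 4.98 and 3.40 CPM in the LN. The receptor chains differed little between tissues, with 73.9, 64.4, 69.7 and 62.3 CPM for Ifnar1 and 44.2, 40.2, 46.3 and 41.3 CPM for Ifnar2. Of 9 receptor and kinase genes tested, 0 were 1.5-fold apart between labels in either tissue. Over all spleen genes tested, only 1.07% were that much higher and 0.559% lower under the ICOS FC label. For LN genes these shares were 1.93% and 2.22%, so 0 of 9 sets these genes apart from no others. Of the 9, 7 had an LN interval below equality and 1 above, where 23.5% and 16.3% of all genes did. The spleen interval lay below equality for 3 of them and above it for 0, against 19.3% and 12.1% of all genes. Jak1 had 349, 355, 310.1 and 281 CPM. Among 10 tested inducers of interferon, 0 differed 1.5-fold between labels in the LN, where 1.93% of all genes were higher and 2.22% lower. Their LN interval lay below equality for 4 and above it for 0, where 23.5% and 16.3% of all genes did. Tmem173 (STING) had 97.3, 87.4, 134 and 125 CPM. Of 8 brakes tested, 1 had an LN interval above equality and 3 below, where 16.3% and 23.5% of all genes did. The 1 above was Socs1, an inhibitor of JAK kinases, which had 132 and 122 CPM in the spleen against 338 and 386 CPM in the LN, with an LN ratio of 0.19 [0.14, 0.25]. The 3 below were Socs3 at -0.11 [-0.19, -0.04], the phosphatase Ptpn6 at -0.17 [-0.28, -0.06] and Irf2bp2, a partner of the repressor IRF2, at -0.39 [-0.51, -0.28].

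Other known interferon targets were counted in the same way. Of 51 further type I interferon-stimulated genes in the tables, 46 passed 5 CPM in the LN, where 34 had an interval below equality and 2 above (23.5% and 16.3% of all genes did), and the median was -0.20. Of 46 genes tested between tissues, 24 were at least 2-fold higher in the LN, where 5.19% of all genes were. In the spleen 9 were above and 12 below of 41, where 12.1% and 19.3% of all genes were, with a median of -0.05. Cxcl10, a chemokine induced by interferons, was higher under the ICOS FC label in both tissues, with 9.38 and 26.6 CPM in the spleen (1.51 [1.30, 1.72]) against 43.2 and 74.7 CPM in the LN (0.79 [0.65, 0.93]). Ly6a (Sca-1) had 254.8, 218, 1644 and 1199 CPM, and the DNA-binding p200 family genes Ifi213 and Ifi204 had LN ratios of -0.68 [-0.79, -0.57] and -0.68 [-0.97, -0.38]. Of 22 interferon-gamma inducible genes tested, 15 had an LN interval below equality and 5 above, and 14 were at least 2-fold higher in the LN, where 23.5%, 16.3% and 5.19% of all genes were. In the spleen 11 of 22 tested were below equality and 3 above, where 19.3% and 12.1% of all genes were, with a median of -0.06. Gbp3, a guanylate-binding GTPase, was among those above equality in both tissues, at 0.48 [0.34, 0.62] and 0.47 [0.37, 0.57].

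Markers of other cells that could carry these genes were low over whole libraries but not in each cluster. Siglech, a defining marker of plasmacytoid dendritic cells, was at 0 in all 4 libraries, and the 8 markers of that cell summed to 40.3, 38.3, 73.6 and 59.4 CPM, with 2 or 3 of them at 0 in each library. The 7 B cell markers summed to 73.5, 76.7, 165 and 198 CPM, most of it Cd74. The 9 myeloid markers summed to 119, 132, 150.2 and 166 CPM, most of it Cst3, with 1, 2, 0 and 2 of them at 0. The 6 markers of CD8 T and NK cells summed to 26.3, 26.7, 55.7 and 44.8 CPM. In LN cluster 6 the B cell markers summed to 555 and 261 CPM. Without LN clusters 6 and 7, 38 members were still below equality, and the LN median was -0.29. All 4 sums were higher in both LN libraries than in either spleen library, as the members were, and their part in the result was not tested.

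Some member counts may be affected by a near copy. Of the 31-base words in the last 400 bases of the transcripts, 61.9% of those of Oas1a were shared with Oas1g, 48.1% of those of Phf11b with Phf11d, 32.8% of those of Slfn8 with Slfn10-ps, 31.6% of those of Herc6 with Gm45193, 30.5% of those of Ifit3 with Ifit3b and 25.4% of those of Trim30a with Trim30d. The split of such reads between copies is uncertain for these 6 members. Dtx3l and Parp9 overlap on opposite strands of chromosome 16, and the labels do not say whether counting used the strand.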

How the data were processed

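The authors deposited, per tissue, a table of natural log values, ln(1 + UMIs per 10000 UMIs of the cell), and a table per cell with the library, cluster, UMI and gene counts and mitochondrial percent, as the deposited headers name them. The submitters' processing notes list Seurat 3.0, R 3.6.1 and Cell Ranger 4.0.0, with builds GRCm38.p6 and mm10. The scale was found from the values, since inverting it gave whole UMI counts for 100% of 17846401 spleen and 8798056 LN values (tolerance 0.001). The deposited mitochondrial percent stayed under 10 and the deposited counts per cell began at 500 UMIs. Columns named Control and KO were matched to ICOS WT and ICOS FC by these words alone.

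UMIs were summed per library and per deposited cluster and given per 1000000 (CPM) with Python 3.11.15, numpy 2.4.6, scipy 1.17.1 and pandas 2.3.3. Ratios have exact conditional Poisson 95% intervals. These were checked on simulated Poisson counts only, so the check does not cover UMIs that sit in few cells. With 1 library per group no test was made. A gene was called at 5 CPM or more in a library, 1.5-fold or more between labels (2-fold between tissues, under both labels) and an interval clear of equality. Medians over members were taken with 0.5 CPM added, and clusters with under 50 cells of a library gave no ratio. No cells were removed and no doublet caller was run. The labels do not say whether doublets were removed before deposit. Alternatives changed the scaling, the minimum level, the cells used and the depth.

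The members and the other gene lists were chosen with earlier results of these data known. Values in full were set by rule for the 12 members with the highest CPM and, per tissue, up to 6 higher and 6 lower members by the interval bound nearest equality. Other members are named by role. Of the other lists, Icos, Foxp3, up to 4 genes per list by that bound, and receptors, inducers and brakes with at least 50 CPM may be named. Ifng and the marker genes named beside their sums were chosen after their values were seen. Values of some single genes are not reported here.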

Additional observations from a re-analysis of the deposited data

Results flagged for a closer look

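For 14 of 35 members tested in both tissues, the ratios of ICOS FC over ICOS WT lay above equality in the spleen and below it in the LN. The reverse held for 0, and over 8249 genes these shares were 2.24% and 2%. Each group was 1 library, and the difference between the tissues was not tested. Both tissues differ in their cells, the oxazolone challenge and the library pair, which cannot be told apart. The log2 ratios in the spleen and the LN were 1.03 and -0.49 for Ifit3, 0.43 and -0.33 for Ifit1, 0.37 and -0.32 for Isg15, and 0.85 and -0.49 for Rsad2. They were 0.58 and -0.25 for Oas1a, 0.22 and -0.20 for Irf7, 0.21 and -0.16 for Bst2, and 0.27 and -0.34 for Ifi27l2a. For the RNA sensor Ifih1 they were 0.22 and -0.41, for Slfn8 0.17 and -0.30, and for Trim30a 0.10 and -0.21. Herc6 had 0.15 and -0.33, Phf11b 0.11 and -0.093, and Daxx 0.17 and -0.20. The spleen values of Phf11b, Trim30a, Herc6, Slfn8 and Daxx were small. The lower spleen bounds of Herc6, Ifih1 and Trim30a were only 0.0072, 0.011 and 0.012. Ifit3, Oas1a, Bst2, Ifi27l2a and Slfn8 had the same opposite order when the interferon response-like clusters were left out, where the share of all genes was not counted.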

How the results depend on the processing

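No paired analysis was possible because each group was 1 library, and for the same reason no replicate could be left out. Of the alternatives to the counts, medians and shares over members, 88 gave nearly the same value and 35 did not. For single members, 336 gave nearly the same value, 63 did not, and 1 turned the direction. In the spleen, members 1.5-fold higher went from 2 to 5 with no minimum level, 0 at 20 CPM, 0 without the interferon response-like cluster, 4 with cells thinned to 2000 UMIs and 4 in cells with a Foxp3 UMI. Spleen members above equality went from 16 to 6 without that cluster, 9 after thinning and 11 in cells with a Foxp3 UMI. They numbered 13 without the Foxp3-low cluster 4 and 19 with either scaling or no minimum level. Spleen members below equality went from 4 to 8 without the interferon response-like cluster and 2 after thinning. They numbered 1 in cells with a Foxp3 UMI and 7 without the Foxp3-low cluster 4. In the LN, members 1.5-fold higher went from 2 to 0 at 20 CPM and to 1 without the interferon response-like cluster, after thinning and in cells with a Foxp3 UMI. LN members 1.5-fold lower went from 2 to 1 with trimmed-mean scaling, median-ratio scaling, a minimum of 20 CPM, without the 5% of cells with most UMIs and without cells whose barcode occurs in another library, and to 3 after thinning. Only 1 of the 2 members was among those called after thinning, without the interferon response-like cluster or in cells with a Foxp3 UMI. LN members above equality went from 2 to 4 with either scaling, 0 at 20 CPM, and 1 without the interferon response-like cluster, after thinning and in cells with a Foxp3 UMI. The LN median of -0.29 went to -0.14 with clusters weighted equally, where Oas2 turned to 0.021; the cause was not tested. LN members below equality numbered 30 to 38, and members at least 2-fold higher in the LN than in the spleen 30 to 38, over the alternatives run. Cells with at least 10 members at 1000 and 4000 UMIs were 0.422% and 13.5% (spleen ICOS WT), 1.09% and 14.4% (spleen ICOS FC), 21.3% and 79.7% (LN ICOS WT), and 14.3% and 67.2% (LN ICOS FC), as detection rises with depth. Leaving out the Foxp3-low spleen cluster, LN clusters 6 and 7, or cells with a shared barcode was chosen after seeing the data. The minimum of 5 CPM left out 8 spleen members for their low level.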
